A study of Mus musculus with 11 samples.

Results

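The genes described here are 34 markers of the brain vasculature: genes of endothelial cells, which line the vessels, and of mural cells, the pericytes and smooth muscle cells wrapped around them. A gene was measured where a probe set carried a single annotated symbol, which held for 32 of the 34 and for 19938 genes in all, and none of the 32 had a further probe set. Ly6a and Ly6c1 were not analysed here. The list holds 23 endothelial or barrier genes, of which 21 were measured, and 11 mural genes, as named by textbook knowledge, and Bsg and Pltp are also expressed outside vessels.

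RNA came from nucleus accumbens enriched in its shell, punched from frozen brains of male mice aged 4 to 5 months, with 1 mouse for each of 11 Affymetrix Mouse Gene 1.0 ST arrays. The WT group held 6 mice and the Rarb-null group 5 littermates that lack retinoic acid receptor beta (RARβ-null mutant in the labels). Both groups came from heterozygous crosses on a mixed background of C57BL/6J and 129SvEms/j, and neither had been used for behaviour. The labels name no Cre line and no tissue restriction of the mutation. Levels are on the log2 scale after RMA, a normalisation that summarises the probes of each gene over all arrays, and a difference is the Rarb-null mean minus the WT mean.

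Brain endothelial cells form the blood-brain barrier. Their tight junctions close the space between cells, nutrient transporters such as the glucose carrier bring substrates in, and efflux pumps return drugs and lipids to the blood. Pericytes share a basement membrane with the endothelium and regulate it, while smooth muscle cells set the diameter of arterioles. Retinoic acid, the ligand of the missing receptor, is known as a signal that can act on barrier properties of endothelial cells.

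Array medians were 7.02 to 7.06 (WT) and 7.08 to 7.11 (Rarb-null), and correlations of array pairs ran from 0.989 to 0.997. Rarb, the mutated gene, read 11.70 to 11.81 in WT and 9.72 to 10.01 in Rarb-null arrays, so the order of the groups matched the sample titles. All 10 measured markers of striatal projection neurons lay above the filter on dim genes described next, and their fall in Rarb-null arrays is given beside Pltp and Vwf. Cortical neuron markers averaged 8.42 to 9.07 (WT) and 9.03 to 9.57 (Rarb-null).

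The vascular genes stood at nearly the same level in both genotypes. Of the 32 measured genes, 30 had a mean above the 40th percentile of all genes (log2 6.99) and were tested; Tagln and Anpep fell below it. Of the 30, 2 rose in Rarb-null arrays, Pltp and Vwf, and 0 fell, at a limma Benjamini-Hochberg adjusted p under 0.05 over 11963 genes. Over all genes tested 19.6% passed, 7.56% of them higher and 12.0% lower as shares of all genes tested, while 6.67% of the vascular genes passed. Before adjustment 4 of the 30 had a p under 0.05: Pltp, Vwf, Slc2a1 and Tek. Non-overlapping arrays were seen for 2 of the 30 genes, again Pltp and Vwf, and for 11.2% of all genes tested. In a bulk sample fewer cells of a type and less RNA per cell cannot be told apart.

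The size of the differences was small as well as their number. The median absolute difference of the 30 genes was 0.0431, against 0.0699 over all genes tested, and the signed medians were -0.0196 and -0.0168. The median standard error (SE) was 0.0453 for the vascular genes and 0.0441 for all genes. The 95% interval of the difference lay within a 1.2-fold change in both directions for 27 of the 30 genes, against 78.8% of all genes tested; the exceptions were Pltp, Kcnj8 and Acta2. It lay within a 1.1-fold change for 13 of the 30, against 34.5% of all genes. The mean level of the 30 genes ran from 8.55 to 8.69 over the WT arrays and from 8.54 to 8.70 over the Rarb-null arrays, so the Rarb-null range covered the WT range.

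**Figure D1:**
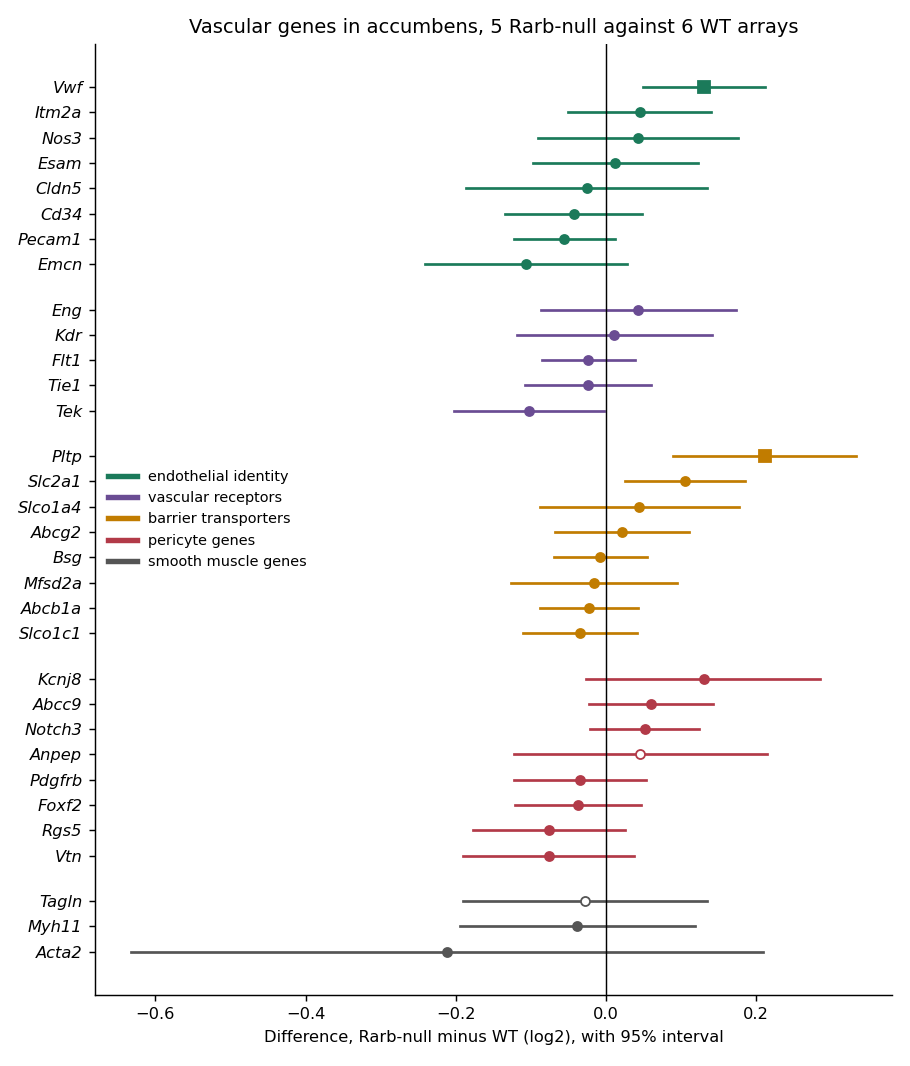
Difference in log2 level between 5 Rarb-null and 6 WT arrays for the 32 measured genes, by role, with the 95% interval of the limma fit. Squares are genes past an adjusted p of 0.05, open circles genes below the filter on dim genes; Pltp (0.21) and Vwf (0.13) lie to the right of 0 with their intervals, and Acta2 has the widest interval.

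Pltp encodes phospholipid transfer protein, which moves phospholipids between lipoproteins. It is made by brain endothelium but also by other cells. Its level ran from 9.90 through a median of 10.13 to 10.23 in the 6 WT arrays, and was 10.32, 10.24, 10.43, 10.37 and 10.28 in Rarb-null replicates 1 to 5. Every Rarb-null array lay above every WT array, although the gap between the highest WT array and the lowest Rarb-null array was narrow. The difference was 0.21 (SE 0.057, 95% interval 0.09 to 0.33), a 1.16-fold rise from 10.12 ± 0.12 (SD, n = 6) to 10.33 ± 0.08 (SD, n = 5). The limma Benjamini-Hochberg adjusted p was 0.0206, and a two-sided exact permutation test over the 462 splits of the arrays gave p = 0.00649. The call was lost without Rarb-null replicate 3 (0.18, limma adjusted p = 0.0592).

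Vwf encodes von Willebrand factor, the clotting protein that endothelial cells store and release. WT arrays ran from 7.39 through a median of 7.47 to 7.57, and Rarb-null replicates 1 to 5 read 7.62, 7.66, 7.58, 7.65 and 7.59. The groups did not overlap, and the 5 Rarb-null arrays lay closer together than the WT arrays. The difference was 0.13 (SE 0.038, 95% interval 0.05 to 0.21), or 1.09-fold, from 7.49 ± 0.07 (SD, n = 6) to 7.62 ± 0.03 (SD, n = 5). Its limma Benjamini-Hochberg adjusted p was 0.0285 and its exact permutation p 0.0108. Leaving out any 1 of 5 mice, WT 1, WT 4, WT 6, Rarb-null 2 or Rarb-null 4, ended the call (0.11 to 0.13, limma adjusted p from 0.0511 to 0.0643).

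Markers of other cells also differed between the genotypes. The fibroblast level was 7.91 in Rarb-null 3 and 4, where Pltp was highest. The oligodendrocyte level was highest in WT 1 (9.41), where Pltp was lowest (9.90), and lowest in Rarb-null 4 (9.01), where Pltp was 10.37. Beside the counts that follow stand the shares over all genes tested, 7.56% higher and 12.0% lower. Of 8 tested markers of perivascular fibroblasts and meninges, 3 rose and 0 fell. Their mean level was 7.75 to 8.06 (WT) and 7.91 to 8.24 (Rarb-null), and leaving out 1 array gave between 0 and 4 rises, with 0 without WT 1, WT 4, WT 6 or Rarb-null 5 and 1 without Rarb-null 2 or 3. Of 10 tested cortical neuron markers 5 rose, and of 11 tested oligodendrocyte markers 4 fell, with mean levels of the latter of 9.18 to 9.41 (WT) and 9.01 to 9.23 (Rarb-null). The cortical count was 8 without WT 2 and 5 to 7 without any other array, and the oligodendrocyte count was 2 without WT 1, 4, 5 or 6 or Rarb-null 1 or 4 and 3 to 5 otherwise. Of 10 tested striatal projection neuron markers 7 fell and 0 rose (5 to 7 falls when 1 array was left out). Their mean level was 11.83 to 11.91 (WT) and 11.56 to 11.68 (Rarb-null), without overlap, and this was the only marker list here whose groups were separate. With the oligodendrocyte marker level in the model the difference of Pltp was 0.09 (limma adjusted p = 0.395) and that of Vwf 0.11 (adjusted p = 0.217). With the cortical marker level they were 0.27 (adjusted p = 0.0599) and 0.14 (adjusted p = 0.131). Both marker levels differed with genotype, with means of 9.28 (WT) and 9.14 (Rarb-null) for oligodendrocyte and 8.70 and 9.19 for cortical markers. In these fits the parts of genotype and of the markers therefore cannot be told apart. The part of the fibroblast and striatal markers in either result was not tested.

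Of the 8 tested barrier transporters Pltp passed and 7 did not, again too few to set apart from the 19.6% passing among all genes tested. Slc2a1 encodes GLUT1, the carrier that brings glucose across the endothelium, and was the gene nearest to the threshold without passing it. WT arrays ran from 10.84 through a median of 10.97 to 11.03, and Rarb-null replicates 1 to 5 read 11.12, 11.01, 11.07, 11.07 and 11.08. The lowest Rarb-null array fell inside the WT range and the other 4 above it. The difference was 0.11 (SE 0.037, 95% interval 0.03 to 0.19; limma adjusted p = 0.0621, exact permutation p = 0.0108). It passed with arrays centred on their median (0.15, limma adjusted p = 0.0112) and with quantile normalisation repeated (0.13, adjusted p = 0.0204). With the cortical marker level in the model it was 0.08 (limma adjusted p = 0.379), and with the oligodendrocyte level 0.07 (adjusted p = 0.432). Without WT replicate 1 it was 0.08 (adjusted p = 0.0993).

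Since Pltp and Slc2a1 were the transporter genes with the largest differences, the windows around their annotated starts are shown, from 250 bases before to 50 after the start, as RefSeq gives them for GRCm38.p6. The Pltp window is chr2:164857659-164857958 on the minus strand and the Slc2a1 window chr4:119108495-119108794 on the plus strand. Capitals mark TATAAA, the core of the TATA box.
Pltp: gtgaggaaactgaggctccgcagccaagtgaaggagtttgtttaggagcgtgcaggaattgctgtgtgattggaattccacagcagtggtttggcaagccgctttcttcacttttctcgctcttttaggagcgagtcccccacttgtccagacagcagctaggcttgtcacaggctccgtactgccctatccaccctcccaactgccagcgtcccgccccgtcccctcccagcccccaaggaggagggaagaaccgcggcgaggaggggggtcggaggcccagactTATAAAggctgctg
Slc2a1: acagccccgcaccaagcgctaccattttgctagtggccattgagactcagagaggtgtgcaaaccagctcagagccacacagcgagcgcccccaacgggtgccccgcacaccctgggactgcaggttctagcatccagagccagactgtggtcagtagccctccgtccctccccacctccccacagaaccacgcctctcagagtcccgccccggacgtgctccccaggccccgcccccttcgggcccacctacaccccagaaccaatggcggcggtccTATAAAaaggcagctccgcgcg
In both windows the match lay after the annotated start, with its first base at position 37 in Pltp and at position 29 in Slc2a1, the start being position 1. On either strand TATAAA was present in 13.6% of 32851 promoter windows of the same length. Among the 34 vascular genes, 25 had a window in the RefSeq table, with 28 windows in all, and 8 windows held TATAAA.

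The other carriers and pumps gave intervals around 0. Slco1c1, a carrier of thyroid hormones and organic anions, read 9.62 ± 0.05 in WT and 9.59 ± 0.05 in Rarb-null arrays (difference -0.03, 95% interval -0.11 to 0.04). Its relative Slco1a4, a carrier of organic anions, differed by 0.04 (95% interval -0.09 to 0.18). The efflux pump genes Abcb1a, which encodes P-glycoprotein, and Abcg2 differed by -0.02 (95% interval -0.09 to 0.04) and 0.02 (95% interval -0.07 to 0.11). Mfsd2a, the carrier of docosahexaenoic acid whose product also holds down transcytosis, differed by -0.02 (95% interval -0.13 to 0.09). Bsg, the gene of basigin, which escorts lactate carriers to the membrane, had the narrowest range over the arrays of any tested member, 0.09, and differed by -0.01 (95% interval -0.07 to 0.05).

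**Figure D2:**
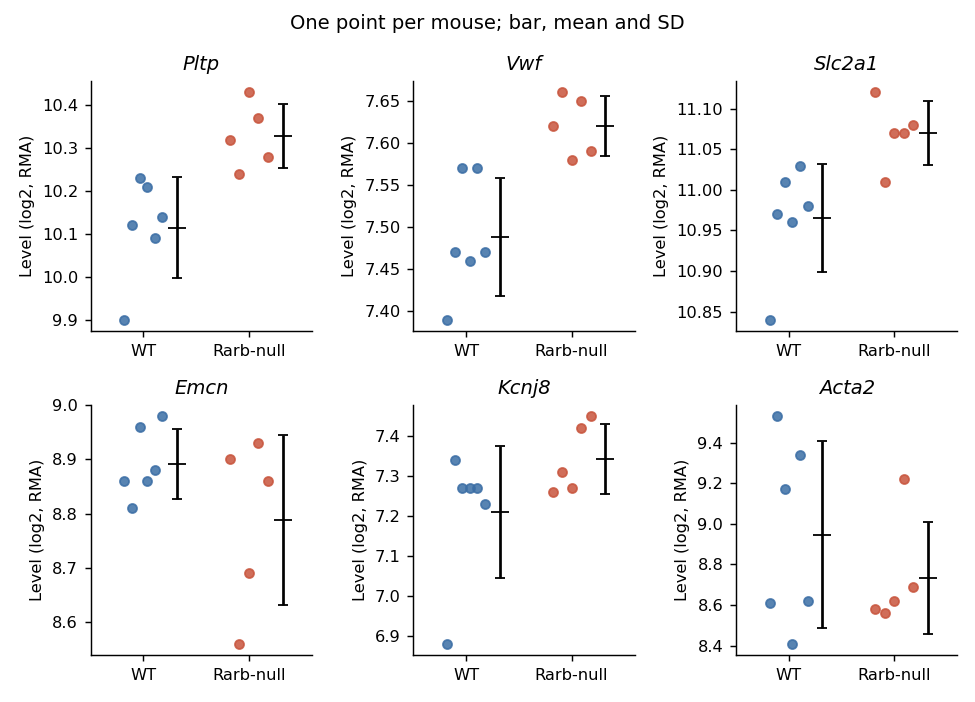
Level (log2 after RMA) of 6 vascular genes in each of 6 WT (blue) and 5 Rarb-null (red) mice, with the mean and SD beside the points; axes differ between panels and do not start at 0. Pltp and Vwf do not overlap between genotypes, and WT replicate 1 is the lowest WT point for Pltp, Vwf, Slc2a1 and Kcnj8.

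Among genes of endothelial identity, Vwf passed and 7 of the 8 tested did not. These are too few genes to set apart from the 19.6% passing among all genes tested. Cldn5, the main claudin of the barrier's tight junctions, read 10.12 ± 0.17 (SD, n = 6) in WT and 10.10 ± 0.08 (SD, n = 5) in Rarb-null arrays, a difference of -0.03 (95% interval -0.19 to 0.13). WT arrays of Cldn5 ran from 9.88 to 10.36 and covered all 5 Rarb-null arrays (10.02, 10.07, 10.09, 10.24 and 10.08). Pecam1, an adhesion molecule at endothelial contacts, differed by -0.06 (95% interval -0.12 to 0.01; limma adjusted p = 0.217). Cd34, a sialomucin of the luminal surface, gave -0.04 (95% interval -0.13 to 0.05). The junction adhesion gene Esam gave 0.01 (95% interval -0.10 to 0.12), the endothelial nitric oxide synthase gene Nos3 0.04 (95% interval -0.09 to 0.18) and the membrane protein gene Itm2a 0.05 (95% interval -0.05 to 0.14). With Emcn, described next, the 7 genes showed no common direction: 3 lay above 0 and 4 below.

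Emcn, the gene of the endothelial sialomucin endomucin, had the lowest difference of the endothelial genes. WT arrays ran from 8.81 through a median of 8.87 to 8.98, and Rarb-null replicates 1 to 5 read 8.90, 8.56, 8.69, 8.93 and 8.86. Replicates 2 and 3 lay below every WT array and the other 3 among them. The difference was -0.11 (SE 0.062, 95% interval -0.24 to 0.03; limma adjusted p = 0.24, exact permutation p = 0.18). Its promoter window, chr3:137340828-137341127 on the plus strand of GRCm38.p6 in RefSeq, is shown because it held more than 1 copy of AGGTCA, the hexamer that nuclear receptors of the retinoid family recognise. Both copies, in capitals, stand on the opposite strand and read TGACCT.
Emcn: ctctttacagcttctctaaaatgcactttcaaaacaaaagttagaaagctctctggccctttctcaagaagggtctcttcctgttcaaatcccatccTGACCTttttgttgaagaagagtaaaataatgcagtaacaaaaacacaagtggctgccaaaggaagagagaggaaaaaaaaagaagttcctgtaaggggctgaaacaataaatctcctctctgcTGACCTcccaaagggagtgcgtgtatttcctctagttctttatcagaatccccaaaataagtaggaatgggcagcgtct
Their first bases lay 153 and 29 bases before the start. AGGTCA on either strand was present in 16.3% of promoter windows and in 5 of the 28 windows of vascular genes, those of Abcg2, Emcn, Ly6c1 and Mfsd2a. A direct repeat of AGGTCA with 5 bases between the copies, searched on both strands, was in 0 of the 28 windows and in 0.00913% of all windows. A pattern this rare cannot show by its absence that these 28 windows lack retinoid elements. Variants of the hexamer and other spacings were not searched. The differences of Abcg2, Emcn and Mfsd2a lay on both sides of 0, and none passed the test.

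The receptors through which vessels read growth factors gave 0 calls among 5, too few genes to set apart from the 19.6% passing among all genes tested. Kdr and Flt1, the genes of VEGF receptors 2 and 1, differed by 0.01 (95% interval -0.12 to 0.14) and -0.02 (95% interval -0.09 to 0.04). The endothelial VEGF receptor genes therefore had intervals that reached at most 0.14 from 0. Tek, which encodes the angiopoietin receptor TIE2, read 8.05 ± 0.06 in WT and 7.95 ± 0.10 in Rarb-null arrays. The difference was -0.10 (SE 0.046, 95% interval -0.202 to -0.00214, limma adjusted p = 0.135, exact permutation p = 0.0628). The unadjusted interval of Tek thus narrowly excluded 0. Rarb-null replicates 2, 3 and 4 of Tek (7.80, 7.92 and 7.95) lay below the lowest WT array (7.99). Its partner Tie1 gave -0.02 (95% interval -0.11 to 0.06), and Eng, the gene of the TGF-beta co-receptor endoglin, 0.04 (95% interval -0.09 to 0.17).

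Pericyte genes likewise gave 0 calls among the 7 tested, again too few to set apart from the general share of 19.6%. Pdgfrb, the receptor through which platelet-derived growth factor recruits pericytes, read 8.78 ± 0.08 in WT and 8.75 ± 0.05 in Rarb-null arrays (difference -0.03, 95% interval -0.12 to 0.05). Rgs5, a regulator of G protein signalling and a standard pericyte marker, gave -0.08 (95% interval -0.18 to 0.03). The vitronectin gene Vtn, an extracellular protein secreted by pericytes, also gave -0.08 (95% interval -0.19 to 0.04). Notch3, the Notch receptor of mural cells, gave 0.05 (95% interval -0.02 to 0.12), and the forkhead factor gene Foxf2 -0.04 (95% interval -0.12 to 0.05). Anpep, an aminopeptidase gene below the filter, read 6.58 ± 0.11 in WT and 6.63 ± 0.18 in Rarb-null arrays.

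Kcnj8 and Abcc9 encode the pore and the sulfonylurea receptor of the ATP-sensitive potassium channel of pericytes, and no protein-coding gene lies between them in the RefSeq table. Kcnj8 ran from 6.88 through a median of 7.27 to 7.34 in WT, and read 7.26, 7.31, 7.27, 7.42 and 7.45 in Rarb-null replicates 1 to 5. Replicates 4 and 5 lay above all WT arrays, and WT replicate 1 stood below all others. The difference was 0.13 (SE 0.072, 95% interval -0.03 to 0.29; limma adjusted p = 0.215, exact permutation p = 0.154) and came to 0.06 without WT replicate 1 (adjusted p = 0.33). Abcc9 gave 0.06 (95% interval -0.02 to 0.14; limma adjusted p = 0.285). The transporter genes Slco1c1 and Slco1a4 also lie close together, with 2 protein-coding genes between them, and 0 of the 34 genes lie on the chromosome of Rarb.

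The contractile genes of smooth muscle differed between mice far more than between genotypes. Acta2, the gene of smooth muscle actin, ran from 8.41 through a median of 8.89 to 9.53 in WT, and read 8.58, 8.56, 8.62, 9.22 and 8.69 in Rarb-null replicates 1 to 5. WT replicates 2, 3 and 5 and Rarb-null replicate 4 stood at 9.17 or above, and the remaining 7 arrays at 8.69 or below. The difference was -0.21 (SE 0.195, 95% interval -0.63 to 0.21; limma adjusted p = 0.462, exact permutation p = 0.40), the largest fall of the list and the least precise. It was -0.10 without WT replicate 2 and -0.33 without Rarb-null replicate 4 (limma adjusted p = 0.727 and 0.242). The SD of Acta2 within groups, 0.388, lay at the 99.7th percentile of all genes tested, where the median gene had 0.0743.

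Of the 4 arrays high for Acta2, 3 were also the highest for the other contractile genes, while WT 3 was not high for Tagln (6.67). WT replicates 2 and 5 and Rarb-null replicate 4 were the 3 highest arrays for Acta2, for the calponin-related gene Tagln and for the smooth muscle myosin gene Myh11 alike. Myh11 read 7.18, 7.22 and 7.30 in these arrays and at most 7.08 in the others, and Tagln 6.85, 6.93 and 6.77 against at most 6.71. The genotype differences were -0.04 for Myh11 (95% interval -0.19 to 0.12; limma adjusted p = 0.737) and -0.03 for Tagln, which was below the filter. Cldn5 was highest in WT replicate 2 and Rarb-null replicate 4, while Pdgfrb in the latter was 8.76. High arrays for Acta2 were thus found in both genotypes.

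**Figure D3:**
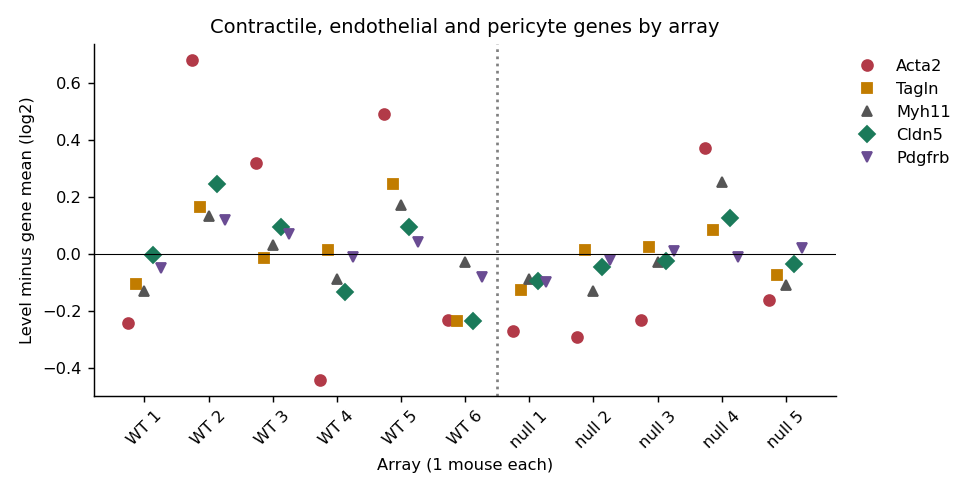
Level of 3 contractile genes, the endothelial gene Cldn5 and the pericyte gene Pdgfrb in each array, as log2 difference from the gene's mean over 11 arrays; the dotted line separates 6 WT from 5 Rarb-null arrays. Acta2, Tagln and Myh11 are highest in WT 2, WT 5 and null 4.

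The Acta2 promoter window, chr19:34255324-34255623 on the minus strand of GRCm38.p6 in RefSeq, is shown because serum response factor is known to act on this promoter through CArG elements. Capitals mark the CArG pattern: CC, then 6 bases of which at least 5 are A or T, then GG, a pattern that is the same on both strands.
Acta2: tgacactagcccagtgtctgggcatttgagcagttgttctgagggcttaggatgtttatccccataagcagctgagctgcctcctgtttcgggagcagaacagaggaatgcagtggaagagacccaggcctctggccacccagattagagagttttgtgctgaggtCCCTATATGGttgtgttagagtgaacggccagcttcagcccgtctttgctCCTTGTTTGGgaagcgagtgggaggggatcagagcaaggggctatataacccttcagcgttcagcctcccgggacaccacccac
The matches began 84 and 34 bases before the annotated start. The pattern was present in 9.98% of all windows and in 5 of the 28 windows of vascular genes, those of Acta2, Eng, Kdr, Slco1a4 and Tek, so it was not limited to contractile genes. Windows of Tagln and Myh11 were not analysed here.

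Other genes of vessels were counted over 7 lists with 99 tested genes, of which 9 rose and 18 fell, or 27.3%. Over all genes tested the share was 19.6%, with 7.56% higher and 12.0% lower. With arrays centred 13 rose and 12 fell. Leaving out 1 array gave 4 to 8 rises and 10 to 18 falls, with at most 5 rises without WT 4, WT 6, Rarb-null 2 or Rarb-null 3 and 10 falls without Rarb-null 3. Of 16 further endothelial genes 2 rose and 0 fell (median -0.00117), with 1 rise when any 1 array other than WT 2, WT 5 or Rarb-null 3 was left out. Of 7 further mural genes 0 rose and 1 fell (median -0.0206). The endothelial amino acid transporter gene Slc38a5 rose by 0.20 (SE 0.053, limma adjusted p = 0.0212), and was 0.21 with the cortical marker level in the model (limma adjusted p = 0.11) and 0.10 with the oligodendrocyte marker level (adjusted p = 0.355), past the threshold in neither. The endothelin receptor gene Ednrb fell by 0.27 (SE 0.043, limma adjusted p = 0.000714). Ednrb is also an astrocyte gene. Of 15 further barrier transporters 2 rose and 1 fell (median 6e-05), with 1 rise when any 1 array other than WT 3, WT 6 or Rarb-null 1 was left out. Of 9 junction genes 1 rose and 2 fell (median -0.0359). When 1 array was left out 1 gene rose without WT 1, WT 2 or Rarb-null 5 and 0 without any other, and 1 gene fell without Rarb-null 2 or 3. Of 11 basement membrane genes 2 rose and 1 fell (median 0.0357), with 0 rises without WT 6, Rarb-null 2 or Rarb-null 3 and 1 without WT 1, 4 or 5 or Rarb-null 5.

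The larger differences were in signalling genes, many of which neurons and glia express. Of 25 angiogenic ligands and receptors 2 rose and 7 fell, where 7.56% of all genes tested were higher and 12.0% lower. The list had a median of 0.0112 and 4 to 7 falls when 1 array was left out, the lowest count without Rarb-null replicate 3. Nrp1, a co-receptor for VEGF and semaphorins, fell by 0.78 (SE 0.048; 8.59 ± 0.07 in WT and 7.81 ± 0.10 in Rarb-null arrays; limma adjusted p = 1.72e-07). Its relative Nrp2 rose by 0.42 (SE 0.074, limma adjusted p = 0.00176), and the Notch ligand gene Jag1 fell by 0.58 (SE 0.063, limma adjusted p = 3.15e-05). Beside these, the VEGF receptor genes Kdr and Flt1 stood at 0.01 and -0.02 as given above. With arrays centred the list gave 5 rises and 5 falls.

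In the Wnt pathway that induces the barrier, 6 of 16 genes fell and 0 rose, with a median of 0.00992. Among all genes tested 12.0% were lower and 7.56% higher. Called or not, 9 of the 16 differences lay above 0 and 7 below. Wnt7a, the neural ligand that signals to brain endothelium, fell by 0.45 (SE 0.047; 9.01 ± 0.06 in WT and 8.56 ± 0.10 in Rarb-null arrays; limma adjusted p = 2.27e-05). Ndp, the gene of the ligand norrin, fell by 0.39 (SE 0.064, limma adjusted p = 0.00113), and Tspan12, a co-receptor for norrin, by 0.17 (SE 0.050, adjusted p = 0.0338). The count was 3 with arrays centred, and between 2 and 6 when 1 array was left out: 2 without Rarb-null 2 or 3, 3 without WT 1, WT 5, WT 6 or Rarb-null 4, and 4 without WT 3, WT 4 or Rarb-null 5. Wnt7a and Ndp passed in every alternative in which they were tested; Tspan12 did not pass when any 1 of WT 1, 3, 5 and 6 or Rarb-null 2, 3 and 4 was left out, with arrays centred (-0.13, limma adjusted p = 0.0616), or with the cortical (-0.21, 0.0943) or oligodendrocyte (-0.08, 0.421) marker level in the model. Astrocyte markers also differed between the genotypes: 4 of 12 fell and 1 rose (3 to 5 and 0 to 1 when 1 array was left out). Their mean levels were 10.09 to 10.20 (WT) and 10.01 to 10.10 (Rarb-null), and their part in the falls of Wnt pathway genes was not tested. Barrier genes known to respond to this pathway, Cldn5, Slc2a1 and Mfsd2a, had the differences of -0.03, 0.11 and -0.02 given above. They gave 0 calls, where 19.6% of all genes tested passed, and 3 genes are too few to compare with that share. Any bearing of the Wnt7a and Ndp falls on them was not tested.

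**Figure D4:**
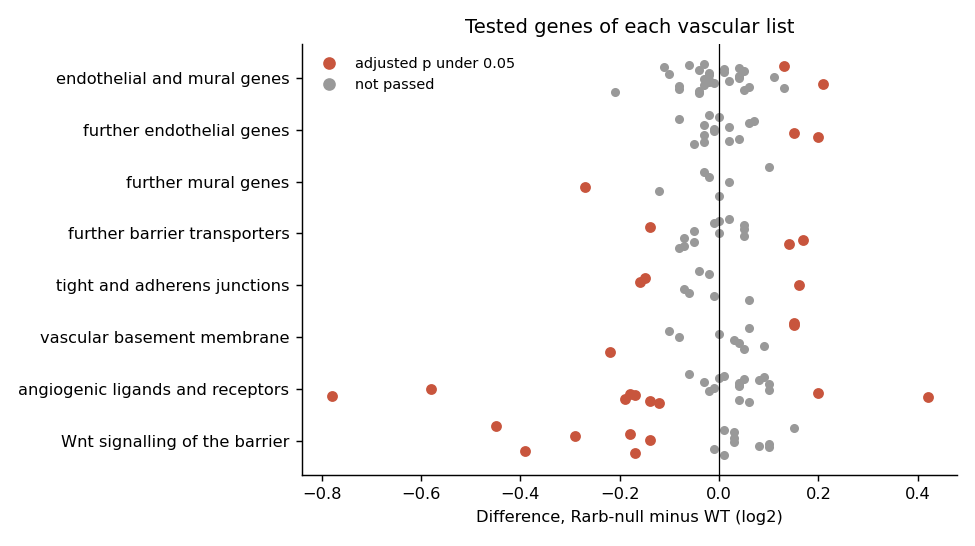
Difference in log2 level between Rarb-null and WT arrays for every tested gene of the 34-gene list (top) and of 7 further vascular lists; red points pass an adjusted p of 0.05. Members and further endothelial and mural genes lie mostly near 0, while Nrp1 (-0.78), Jag1 (-0.58) and Wnt7a (-0.45) lie farthest to the left.

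Cells that enter a punch with the vessels were also counted. Microglia markers gave 0 calls among 10 (median -0.0568), and of the blood cell markers 2 were tested with 0 calls. The share over all genes tested was 19.6%. Of 8 measured markers of perivascular macrophages 1 lay above the filter, and it did not pass. Choroid plexus and ependymal markers gave 3 tested genes of 11 measured, 1 higher and 1 lower. The mean level of the blood cell markers was 7.83 to 8.04 (WT) and 7.82 to 8.08 (Rarb-null).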

How the data were processed

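The authors deposited log2-scale expression values after RMA for each probe set, as the labels and the submitters' processing notes state. Base 2 was inferred from the range of the values; software version and annotation are not given in the sources used here. RMA subtracts background, normalises quantiles and summarises probes, which compresses folds of dim genes, and signal over background could not be measured.

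Symbols came from the platform annotation, updated through Entrez identifiers for 21698 of 21789 probe sets with 1 symbol against RefSeq (GRCm38.p6); 1621 probe sets with several symbols and 12146 not listed were left out. Each gene took its probe set with the highest mean, and the 11963 of 19938 genes whose mean exceeded the 40th percentile were tested. The extraction text counts 6 null and 5 WT mice, whereas titles and series design give 6 WT and 5 null; the latter were used.

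Genotypes were compared with limma 3.58.1 in R 4.3.3 (lmFit, eBayes, no covariates), with Benjamini-Hochberg adjustment over all genes tested, and single genes with two-sided exact permutation tests. Intervals are the unadjusted 95% intervals of the fit. Members and lists were chosen with earlier results of these data known. Genes named were those called, the 3 largest differences among members not called, and up to 3 called genes of a related list; Slc2a1, Tek and the promoter motifs were chosen after values were seen. The fit was tested on simulated data with 50 genes changed at each of 4 sizes, fewer changed genes than were called here. It recovered 24% of true differences of 0.15, 78% of 0.25, 96% of 0.5 and 100% of 1. Differences of the size seen in most vascular genes would thus often be missed. Alternatives were no or a stricter filter, centring, repeated quantile normalisation, array weights, averaged probe sets, a trended and robust variance, a replicate block, marker covariates and left-out arrays. Plots used matplotlib 3.10.9 (Python 3.11.15).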

Additional observations from a re-analysis of the deposited data

Results flagged for a closer look

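Of 64 groups of arrays examined (32 genes in 2 genotypes), 6 held an array far from the rest of its group by Dixon's test, where chance gives about 1 group in 20. Acta2 read 9.22 in Rarb-null replicate 4 and 8.56 to 8.69 in the other Rarb-null arrays. Myh11 read 7.3 in the same array and 6.92 to 7.02 in the other 4. Slc2a1 read 10.84 in WT replicate 1 against 10.96 to 11.03 in the other WT arrays, and Kcnj8 read 6.88 in that array against 7.23 to 7.34. Flt1 read 9.07 in WT replicate 5 against 8.96 to 8.99, and Bsg 11.18 in Rarb-null replicate 2 against 11.24 to 11.25.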

How the results depend on the processing

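The number of vascular genes called, all of them rises, went from 2 to 1 with the stricter filter (which left Vwf out and kept Pltp), with the replicate number as a replicate block and with 3 arrays left out together for their cortical marker level (WT 3, WT 4 and Rarb-null 5). It was 0 with the cortical or the oligodendrocyte marker level as a covariate, and 1 to 2 when 1 array was left out. It was 3, with Slc2a1 added, under centring, repeated quantile normalisation, the trended and robust variance and array weights. Vascular genes that fell numbered 0 under all 22 alternatives. Over all genes tested 2341 were called, 1086 with the cortical and 890 with the oligodendrocyte covariate, 1347 without those 3 arrays, 2872 with the replicate block, to which WT 6 adds nothing because it has no partner (1948 without WT 6 and without the block), and 1547 to 2576 when 1 array was left out. Centring moved the share of higher calls among all genes from 38.7% to 64.1%, and the median of the vascular genes from -0.0196 to 0.0204. Kcnj8 turned to -0.00509 with the oligodendrocyte covariate (adjusted p = 0.979). The replicate numbers were not taken as pairs, since the labels name nothing shared and the correlations of same-numbered deviations, all 5 above 0, ran down to 0.0557 (highest 0.425). The Rarb-null array correlated best with its own number for 2 of 5 numbers. With the block Vwf had an adjusted p of 0.0613, and 0.0511 without WT 6 and without the block. The cause of these changes was not tested, except that the stricter filter tests fewer genes. The number of arrays limits the precision, with a median SE of 0.0453 for the vascular genes.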

Other observations

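Several vascular genes held exactly the same deposited value in different arrays. Notch3, the Notch receptor of mural cells, read 7.88 with all deposited decimals equal in 6 of 11 arrays, and Flt1 and Kcnj8 shared 1 value among 4 arrays each. Of the 30 tested vascular genes 6 had at least 3 arrays at 1 value, against 15.9% of all genes tested.

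Among the markers of choroid plexus and ependyma, Kl, the gene of the hormone co-receptor klotho, fell by 0.41 (SE 0.045, limma adjusted p = 3.24e-05), and the chloride channel gene Clic6 rose by 0.38 (SE 0.066, limma adjusted p = 0.00176). Neither gene's groups overlapped, as was the case for 11.2% of all genes tested. Of the other basement membrane and junction genes, the matrix protein gene Sparc fell by 0.22 (SE 0.049, limma adjusted p = 0.00748) and Jam3, a junction adhesion molecule also found outside vessels, by 0.16 (SE 0.041, limma adjusted p = 0.0147). Sparc lost its call in 1 of 22 alternatives and Jam3 in 0 of 21.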
